A study of Rattus norvegicus with 6 samples.

Results

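Committed differentiating oligodendrocyte precursors are the short-lived step between dividing oligodendrocyte precursor cells (OPCs) and myelinating oligodendrocytes. They were picked out here, nucleus by nucleus, in droplet-based single-nucleus RNA sequencing of the nucleus accumbens of adult rats. Members were chosen by measured marker UMIs. A nucleus was taken when it held at least 500 detected genes, at most 5% mitochondrial UMIs, at least 2 UMIs (unique molecular identifiers, each standing for 1 captured RNA molecule) of Enpp6 and Gpr17 together, and at least 4 UMIs of Bcas1, Enpp6 and Gpr17 together. It also had to hold no UMI of Pdgfra, Mog, Opalin or Csf1r, at most 1 of Gad1 and Gad2 together and at most 1 of Aqp4. Of 61609 nuclei kept on the first pair of limits, 149 (0.242%) met the whole rule. The rule reads 10 genes, and their values are given as a description only.

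The tissue came from 12 Sprague-Dawley rats, 6 male and 6 female, aged 90 to 120 days, combined into 6 libraries that each pool both sexes. All of the rats had self-administered heroin, so no group lacks the drug. The schedule ran for 7 days at 1 response per infusion, then 4 days at 3 responses, a progressive ratio test on day 12, and a return to 3 responses for days 13 and 14. Afterwards they were given either saline (replicates 1, 2 and 3) or naloxone, an opioid receptor antagonist (replicates 4, 5 and 6), and tissue was taken 1 hour later. The labels do not say which rats share a library, so p-values over libraries measure the spread between these 6 pools.

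In the adult brain OPCs carry the growth factor receptor Pdgfra and the proteoglycan Cspg4, and some leave the cell cycle to differentiate. On the way they switch on Gpr17, a G-protein-coupled receptor of the intermediate stage, then Enpp6, a phosphodiesterase that cleaves choline phospholipids, and Bcas1, which marks cells starting to make myelin. Gpr17 and Enpp6 are then shut off, and proteins of the mature myelin sheath, such as Mog and Mobp, follow.

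The 6 libraries held between 55739350 and 76272798 UMIs, and between 7896 and 14519 kept nuclei. Committed precursors numbered 24, 35 and 24 in the saline libraries and 30, 22 and 14 in the naloxone libraries, and their summed UMIs ran from 64319 to 144842 per library. The largest nucleus held from 6.71% of those UMIs (saline 2) to 18.1% (naloxone 6), so a single nucleus can carry a low-level gene. Their median depth was 3839 UMIs and 1784 genes. None of the 149 was called as a doublet from simulated pairs, against 2649 (4.3%) of all kept nuclei. Among OPCs 18 of 1168 were called, and among mature oligodendrocytes 267 of 9218. The limits on markers of other cell types leave out mixed nuclei, so these counts are partly set by the rules. Nuclei with UMIs of both Xist and Y-linked genes, which these pools of both sexes can form as doublets or through free RNA, made up 4.70% of the members, 4.28% of OPCs and 3.43% of mature oligodendrocytes. Naloxone 5 stood apart from the other libraries of its group over all nuclei (chi-square per degree of freedom 44.1 and 54.4, against 11.5 to 17.8 for the other pairs within a group), and no result of the naloxone comparison passed or was lost without it. Across libraries 463 barcodes occurred more than once. Of the members, 4 carried such a barcode, and no pair of members shared one.

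Bcas1 was not confined to the members: it was detected in 97.2% of OPCs and 91.4% of mature oligodendrocytes. Within the rule, Bcas1 had a median of 43 UMIs (1 to 166) per member, Enpp6 6 UMIs (0 to 29) and Gpr17 0 UMIs (0 to 4). Thus 92 members held Enpp6 without Gpr17, 41 held both, and 16 held Gpr17 without Enpp6. These 3 kinds are compared further on.

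Bmp4, a secreted ligand of the BMP family known to be made at this step, is a marker of these cells that the rule did not read, so it serves as the check of the name. It was detected in 74 of the 149 nuclei (49.7%, exact 95% interval 41.4 to 58.0%). The same share was 8.39% in 1168 OPCs, 4.0% in 9218 mature oligodendrocytes and 0.175% in 572 microglia, which served as a class that should lack the gene. Intervals and floors given here cover counting error only. OPCs had a median of 3690 UMIs, mature oligodendrocytes 1755 and microglia 1623. After each nucleus of at least 1000 UMIs was thinned to 1000, the 4 shares of Bmp4 were 17.7%, 1.63%, 2.15% and 0%, in the same order. Thinning left out 2 members, 3 OPCs, 1082 mature oligodendrocytes (11.7%) and 86 microglia (15.0%) that held fewer UMIs. In CPM (counts per 1000000 UMIs of the class in a library), Bmp4 stood at 147, 140 and 301 in the saline libraries and at 221, 287 and 249 in the naloxone libraries. All 6 lay above every OPC library (17.4 to 33.1 CPM) and every mature oligodendrocyte library (16.1 to 29.0 CPM).

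**Figure D1:**
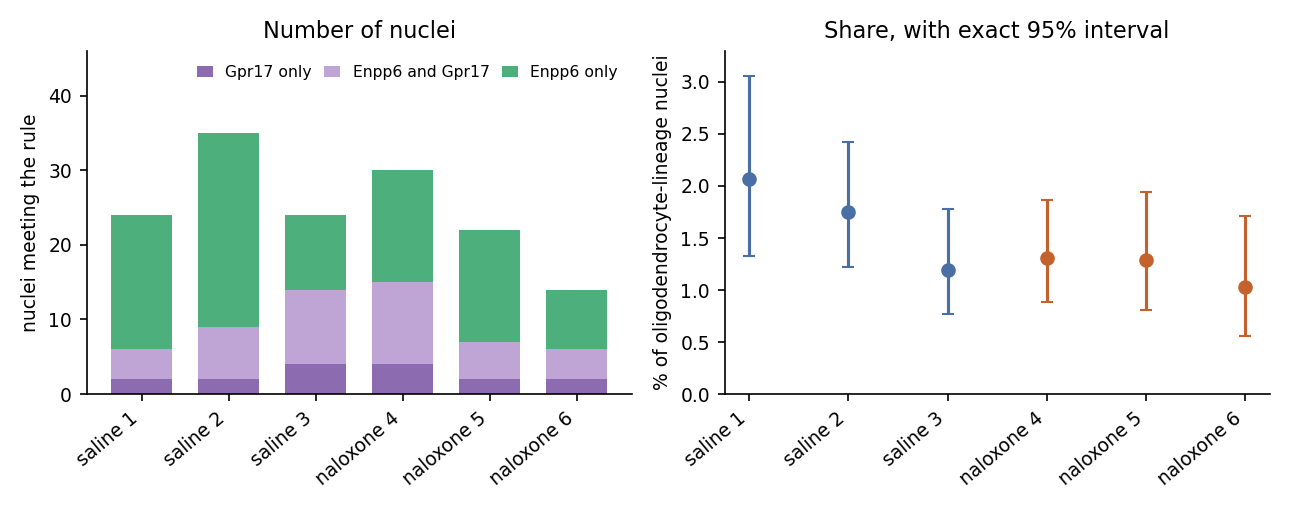
Left, the number of committed precursor nuclei in each library (y axis), stacked by whether a nucleus held UMIs of Gpr17 only, of Enpp6 and Gpr17, or of Enpp6 only. Right, their percentage among committed precursors, OPCs and mature oligodendrocytes together, with exact 95% binomial intervals, blue for saline and orange for naloxone: the intervals of all 6 libraries overlap.

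Markers of the other cell types were at low levels, though not below the neighbouring classes on every list. Low levels were in part set by the rule, which limits Gad1, Gad2, Aqp4 and Csf1r, genes that these lists hold. The sums below are therefore a description. The 15 neuron markers summed to 824 to 2151 CPM across libraries of committed precursors, against 2348 to 3152 CPM in OPCs and 1210 to 2606 CPM in mature oligodendrocytes, and all 15 had at least 1 UMI. The 10 astrocyte markers summed to 62.2 to 409 CPM, with S1pr1 and Aldh1l1 at 0, against 514 to 877 CPM in OPCs and 494 to 1004 CPM in mature oligodendrocytes. The 10 microglia markers summed to 28.7 to 228 CPM, with Csf1r (a gene of the rule) and Aif1 at 0. In OPCs they summed to 51.4 to 105 CPM and in mature oligodendrocytes to 96.9 to 198 CPM. Their mean was 104 CPM in members, 72.0 CPM in OPCs and 134 CPM in mature oligodendrocytes. Of 9 endothelial and mural markers, 7 were at 0, among them Flt1, Cldn5 and Pdgfrb. These 9 summed to 0 to 57.4 CPM, against 8.71 to 41.85 CPM in OPCs and 6.89 to 32.2 CPM in mature oligodendrocytes. Vwf, the only gene of this list tested between classes below, was higher in members than in OPCs (log2 difference 1.54) and mature oligodendrocytes (3.99). Of 4 ependymal markers 3 were at 0, among them Foxj1. One member of saline 2 stood apart: it held 42 of the 69 UMIs that all members had of Mobp, a gene of compact myelin.

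The limit on Enpp6 and Gpr17 cut through a gradient. The 23 members at exactly 2 UMIs had 1543 CPM of Tcf7l2, 8551 of Frmd4a and 1775 of Ptprz1, pooled over libraries. The 73 nuclei at 1 UMI that met every other limit had 414 CPM of Tcf7l2, 2299 of Frmd4a and 2445 of Ptprz1, and over all 149 members the levels were 2844, 30330 and 385 CPM. The rule also turned away 48 nuclei for 1 UMI of Mog or Opalin (28280 CPM of Frmd4a and 344 of Ptprz1) and 30 for 1 UMI of Pdgfra (20790 and 1554 CPM).

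Committed precursors were set beside OPCs (at least 3 UMIs of Pdgfra and Cspg4, with Pdgfra present and Enpp6, Mog and Opalin absent) and mature oligodendrocytes (at least 2 UMIs of Mog and Opalin, with Pdgfra, Enpp6 and Gpr17 absent) of the same libraries. UMIs were summed per class and library and fitted together with edgeR, with library as a block. Because the 3 classes were cut on marker UMIs of the same nuclei, genes that go along with those markers had to differ. The counts of genes that follow are therefore a description of the classes, with no p-values, and nothing is read from them as a test. Of 9090 genes tested (rule genes left out), 2869 (31.6%) had an adjusted p under 0.05 against OPCs, 1090 (12%) higher and 1779 (19.6%) lower in committed precursors, and the values of 20% did not overlap between the classes over the 6 libraries. Against mature oligodendrocytes 2719 (29.9%) did, 1157 (12.7%) higher and 1562 (17.2%) lower, and 18.9% did not overlap. These are called higher or lower below, and log2 differences are given with their standard errors. Counts within a list are to be read beside these shares over all genes.

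Of a list of 28 genes of the commitment step, 23 could be tested. Of these, 20 were higher than in OPCs and 21 were higher than in mature oligodendrocytes. The median log2 difference was 2.84 and 3.38, where the medians over all 9090 genes were -0.10 and -0.13. Tcf7l2, a transcription factor that binds beta-catenin, had 3395, 2807 and 2437 CPM in the saline libraries and 2596, 2800 and 3420 CPM in the naloxone libraries. OPC libraries ranged from 155 to 202 CPM and mature libraries from 136 to 182 CPM, so the class stood above its neighbours on both sides in every library. Tcf7l2 was detected in 93.3% of committed precursors, 43.6% of OPCs and 22.4% of mature oligodendrocytes, and in 39.5% of microglia.

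Other genes of this step had the same shape. Fyn, a Src-family kinase of early myelination, averaged 2553 ± 461 CPM (SD, n = 6 libraries), against 395 ± 18.7 in OPCs and 132 ± 9.62 in mature oligodendrocytes. Tns3, a focal-adhesion protein, averaged 3141 ± 288 CPM, against 409 ± 40.01 and 320 ± 17.6. Itpr2, a calcium channel of the endoplasmic reticulum, averaged 1153 ± 273 CPM, against 361 ± 32.3 and 55.0 ± 6.87. For each of these 3 genes the lowest committed precursor library lay above the highest library of either neighbour. Sirt2, a deacetylase, was higher than in OPCs by a log2 difference of 4.21 ± 0.13 (SE) and than in mature oligodendrocytes by 2.82 ± 0.11. Zfp488, a transcriptional repressor of the lineage, differed by 2.17 ± 0.27 and 3.59 ± 0.28. Of the list, Brinp3 was lower than in OPCs (250.6 against 2142 CPM) and Arap2 was lower than in mature oligodendrocytes. Neu4 and Vcan were not called against OPCs, and Kif21a was not called against mature oligodendrocytes.

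The genes that stood highest above both neighbours were, by the smaller of the 2 log2 differences, Casr, Kif19, Cmtm7, Tmem108, Capn6, Frmd4a, Tns1, Nhsl2, Mroh2a and Rin3. Casr, the calcium-sensing receptor, had 109 UMIs in committed precursors, 3 in all OPCs and 13 in all mature oligodendrocytes. Its level was uneven, at 398, 199 and 53.2 CPM in the saline libraries and 104, 57.4 and 295 CPM in the naloxone libraries. Casr was detected in 28.9% of members, against 0.257%, 0.0976% and 0.175% of OPCs, mature oligodendrocytes and microglia. The ratio of its level to that in OPCs was 278.5, with a counting interval of 92.8 to 1371 because OPCs held only those 3 UMIs.

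Kif19, a kinesin motor, had 99 UMIs against 1 in OPCs (ratio 759, interval 133 to 30270) and was detected in 34.9% of members. Cmtm7, a membrane protein of the CMTM family, was detected in 47.0% of members and 0.171% of OPCs, but also in 22.4% of microglia. Capn6, of the calpain family, was the sparsest of these, at 43 UMIs in 25 nuclei. Rin3, which interacts with Rab GTPases, averaged 125 ± 37.9 CPM, against 4.57 ± 5.21 in OPCs and 1.77 ± 0.83 in mature oligodendrocytes.

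Frmd4a, a FERM-domain scaffold protein, and Tmem108, a transmembrane protein, were abundant. Frmd4a had 28960, 31020 and 34490 CPM in the saline libraries and 28020, 25920 and 33600 CPM in the naloxone libraries. OPCs averaged 742 ± 78.0 CPM and mature oligodendrocytes 319 ± 105 CPM. Frmd4a was also found in 96.9% of microglia. Tmem108 averaged 9113 ± 1018 CPM and was found in 90.6% of members, 38.0% of OPCs, 3.91% of mature oligodendrocytes and 2.45% of microglia. Its log2 difference was 5.87 ± 0.16 from OPCs and 8.12 ± 0.17 from mature oligodendrocytes, the largest fitted increase over the mature class among the named genes.

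**Figure D2:**
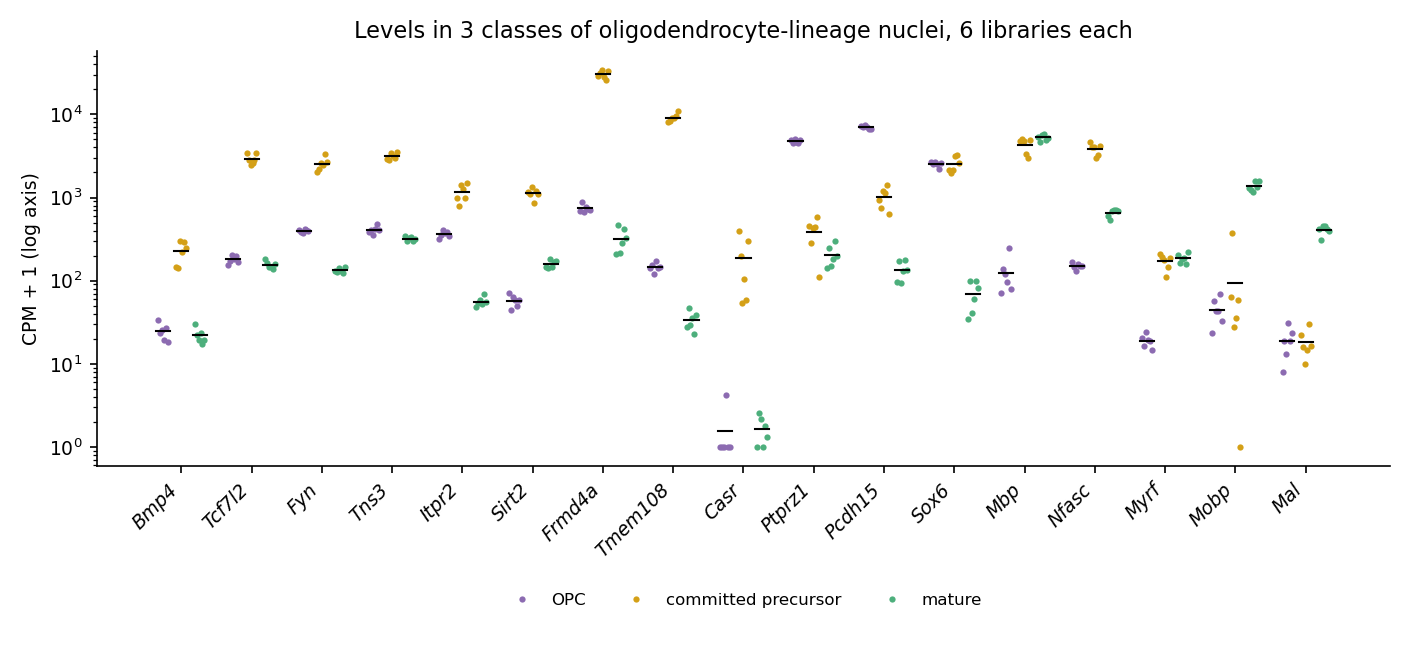
Level of 17 genes in OPCs (purple), committed precursors (gold) and mature oligodendrocytes (green), as CPM plus 1 on a log axis; each point is 1 of 6 libraries and each line their mean. Bmp4 through Casr peak in the middle class, Ptprz1 and Pcdh15 step down, and Mobp and Mal are high only in the mature class among these 3.

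Genes of OPC identity were mostly lower. Of 25 tested genes on an OPC list, 18 were lower than in OPCs, 3 were higher and 4 were not called, with a median log2 difference of -2.65. Against mature oligodendrocytes 18 of the same 25 were higher, 1 was lower, and the median was 2.06. Ptprz1, a receptor tyrosine phosphatase, averaged 380 ± 163 CPM, 4763 ± 219 in OPCs and 202 ± 60.1 in mature oligodendrocytes. Its lowest library was naloxone 6 (109 CPM) and its highest naloxone 5 (574 CPM), and the 6 values overlapped with those of mature oligodendrocytes. Pcdh15, a protocadherin, averaged 1006 ± 294 CPM, against 7043 ± 335 and 133 ± 35.9, and its range (637 to 1422 CPM) lay between the ranges of the other classes.

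Not every OPC gene was lower. Sox6, a transcription factor that holds back differentiation in OPCs, averaged 2527 ± 549 CPM in committed precursors and 2519 ± 179 CPM in OPCs, where no difference was called. It averaged 68.2 ± 28.5 CPM in mature oligodendrocytes. Tnr, which encodes the matrix protein tenascin-R, was higher in committed precursors than in OPCs (1749 ± 256 against 515 ± 51.1 CPM), as were Sema5a, a guidance molecule (2646 ± 526 against 628 ± 76.1 CPM), and Bcan. Tnr and Sema5a stood at 21.9 ± 5.94 and 29.5 ± 5.93 CPM in mature oligodendrocytes.

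The naming rule, which orders genes by the fitted difference, picked as below OPCs Tafa4, Adamts12, Wnt7a, Adamts18, Fam89a, Tmem100, Rlbp1, Ebf1, Phldb2 and Crtac1. Tafa4, a secreted chemokine-like protein, and Wnt7a, a Wnt ligand, had no UMI in any of the 149 members, where a count of 0 allows a share of nuclei with a UMI of up to 2.01% (3 counts over 149). They had 477 and 303 UMIs in OPCs, so Tafa4 was at least 20.7-fold lower and Wnt7a at least 13.2-fold lower, taking 3 UMIs over all libraries as the floor. The proteases Adamts12 and Adamts18, also at 0, were at least 14.7-fold and 11.4-fold lower by the same floor. At 0 UMIs the fitted difference depends on the prior count of the fit, so these 4 are given by their floors and hold no rank above the other 6. Rlbp1, which binds retinaldehyde, had 3 UMIs in members and 1053 in OPCs (ratio 45.8, interval 15.6 to 222).

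Genes of the myelin sheath were split between an early and a late set. Of 35 tested genes on a myelin list, 19 were higher than in OPCs, 1 was lower and 15 were not called. Against mature oligodendrocytes 26 were lower, 3 were higher and 6 were not called, with a median log2 difference of -2.91 (-2.37 with the gene at 0 UMIs set at its floor). Mbp, the basic protein of myelin, had 4757, 5091 and 4820 CPM in the saline libraries and 3342, 2944 and 4897 CPM in the naloxone libraries. OPC libraries had 69.7 to 243 CPM and mature libraries 4620 to 5837 CPM, and no difference from the mature class was called. Myrf, the transcription factor that drives myelin genes, averaged 170 ± 36.3 CPM, beside 17.9 ± 3.32 in OPCs and 185 ± 23.7 in mature oligodendrocytes.

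Nfasc, the adhesion molecule of the axon-glia junction, was higher than in both neighbours, at 3862 ± 614 CPM against 150 ± 11.7 in OPCs and 656 ± 72.0 in mature oligodendrocytes. Cnp and Gal3st1, an enzyme of sulfatide synthesis, were the other 2 myelin genes above the mature class. The late set was far below it. Mobp averaged 1360 ± 177 CPM in mature oligodendrocytes. In committed precursors it stood at 62.9, 376 and 26.6 CPM in the saline libraries and at 34.5, 57.4 and 0 CPM in the naloxone libraries, and the value of saline 2 comes mostly from the nucleus described above. Mal, a proteolipid of compact myelin, averaged 17.1 ± 6.88 CPM, 17.9 ± 8.09 in OPCs and 409 ± 55.8 in mature oligodendrocytes.

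Below mature oligodendrocytes the naming rule picked Jhy, Sec14l5, Galnt6, Dapk2, Dock5, Grm3, Tsc22d3, Crtac1, Cyp2j10 and Spock1. The first 4 had no UMI in members and were at least 42.7-fold, 29.7-fold, 28.5-fold and 12.4-fold lower by the floor of 3 UMIs, and they too hold no rank above the others. Dapk2 was not called with DESeq2. Grm3, a metabotropic glutamate receptor, averaged 8514 ± 1061 CPM in mature oligodendrocytes, 128 ± 128 in committed precursors and 99.4 ± 38.2 in OPCs. Spock1, a proteoglycan, averaged 2355 ± 107 CPM in the mature class and 45.5 ± 54.4 CPM in committed precursors. Dock5, an activator of Rac, had 2 UMIs in members (ratio 132 in favour of mature oligodendrocytes, interval 36.5 to 1090). Above mature oligodendrocytes it picked Tmem108, Capn6, Casr, Tspan11, Kif19, Neu4, Tcp11x2, Sema5b, Frmd4a and Sema5a. Neu4, a sialidase, was shared with OPCs: it averaged 140 ± 64.8 CPM in committed precursors, 99.5 ± 28.2 in OPCs and 1.07 ± 0.56 in mature oligodendrocytes.

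Transmitter receptors and adhesion molecules, by which OPCs sense and contact neurons, were mostly lower than in OPCs. Of 29 tested transmitter receptors, 22 were lower, 6 were not called and 1, Grik2, was higher. Grik2, a kainate receptor subunit, averaged 6687 ± 1332 CPM against 2073 ± 84.7 in OPCs and 2359 ± 146 in mature oligodendrocytes, and its lowest library (5371 CPM) lay above all libraries of both. Gria2, an AMPA receptor subunit, went down in steps, with 1175 ± 37.7 CPM in OPCs, 645 ± 65.2 in committed precursors and 350 ± 83.7 in mature oligodendrocytes. Of 28 adhesion genes, 18 were lower and 8 higher than in OPCs, while 21 were higher than in mature oligodendrocytes. Opcml, a GPI-anchored adhesion molecule, averaged 13450 ± 3128 CPM (5828 ± 304 in OPCs and 391 ± 66.8 in mature oligodendrocytes), and Cadm2 9319 ± 705 CPM (3699 ± 143 and 2103 ± 151).

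Of 26 tested genes of cholesterol and lipid synthesis, 14 were higher than in OPCs, 1 was lower and 11 were not called. Against mature oligodendrocytes 3 were higher, among them Elovl6, 8 were lower and 15 were not called. Elovl6, a fatty acid elongase, averaged 336 ± 86.7 CPM, against 180 ± 14.1 and 158 ± 7.78. Ugt8, which makes the myelin lipid galactosylceramide, averaged 778 ± 158 CPM, beside 110 ± 12.5 in OPCs and 662 ± 177 in mature oligodendrocytes.

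Of 22 tested genes of BMP, Wnt and Notch signalling, 8 were higher and 8 lower than in OPCs. Lgr5, the receptor of R-spondins, averaged 106 ± 70.4 CPM, against 17.6 ± 10.2 in OPCs and 3.44 ± 1.53 in mature oligodendrocytes. Smad7, an inhibitory Smad, averaged 98.2 ± 28.9 CPM, 24.97 ± 4.34 in OPCs and 113 ± 22.7 in mature oligodendrocytes. Of 12 tested genes on a list of G-protein-coupled receptors, not all of them for lipids or purines, Casr, Lpar1 and S1pr5 were higher than in OPCs. The 7 lower genes were Adora1, Adgrl3, Ednrb, Adgrg1, Ednra, Adgrb2 and Adgrb3. Lpar1, a receptor for lysophosphatidic acid, averaged 159 ± 33.4 CPM, between 9.45 ± 4.36 in OPCs and 541 ± 53.9 in mature oligodendrocytes.

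Of 29 tested transcription factors of the lineage, 13 were higher and 8 lower than in OPCs, and 10 were higher and 9 lower than in mature oligodendrocytes. Of 15 tested genes that respond to glucocorticoids, 2 were higher and 7 lower than in OPCs, and 1 was higher and 12 lower than in mature oligodendrocytes. Of 22 tested heat shock genes, 2 were higher and 1 was lower than in OPCs, and 4 were lower than in mature oligodendrocytes. Over all 9090 genes, 12% were higher and 19.6% lower than in OPCs. Against mature oligodendrocytes these shares were 12.7% and 17.2%. The heat shock counts were near or below the shares over all genes, so nothing is read from them. Cell-cycle genes were nearly absent. Of 22 on the list only 5 passed the filter on low counts, and 4 of those were lower than in OPCs. The 22 genes summed to 74.0 ± 38.5 CPM in committed precursors, 329 ± 56.8 in OPCs and 118 ± 11.6 in mature oligodendrocytes. Mki67, made in dividing cells, was found in 2 of the 149 members (1.34%, exact 95% interval 0.163 to 4.77%) and in 3.51% of OPCs. The mu opioid receptor gene Oprm1 was found in 3 members (2.01%, interval 0.417 to 5.77%). Its share was 2.65% in OPCs, 2.31% in mature oligodendrocytes and 18.2% in microglia, so the share in members was not above that of the neighbouring classes.

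**Figure D3:**
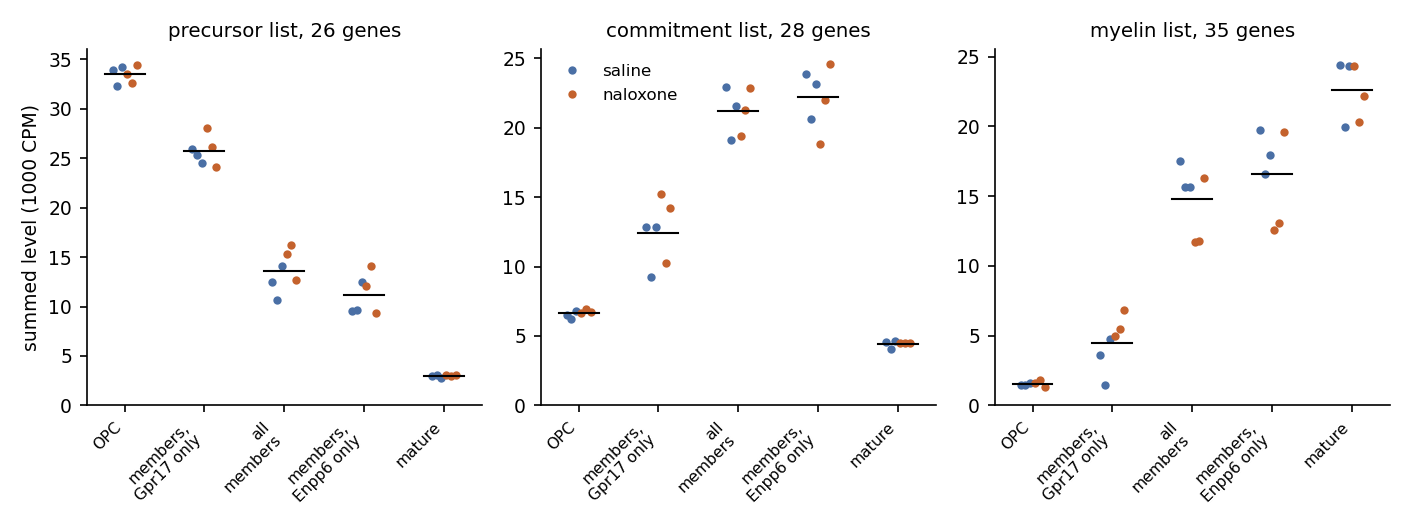
Summed level, in 1000 CPM, of a list of OPC genes, a list of commitment genes and a list of myelin genes (rule genes left out) in OPCs, in members with Gpr17 only, in all members, in members with Enpp6 only and in mature oligodendrocytes. Each point is 1 library, blue for saline and orange for naloxone, and lines are means: the mean of the Gpr17-only members lies between those of OPCs and Enpp6-only members on all 3 lists.

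The members were not alike. Those with Gpr17 only (16 nuclei, 2 to 4 per library) and those with Enpp6 only (92 nuclei, 8 to 26 per library) had median depths of 3648.5 and 3872 UMIs. The split was made on genes of the rule, so the counts again describe and do not test. Of 338 genes with enough UMIs, 156 (46.2%) were called different, 96 (28.4%) higher and 60 (17.8%) lower in Enpp6-only nuclei, and 27.8% did not overlap over libraries. The OPC list summed to 25690 ± 1415 CPM (SD, n = 6) in Gpr17-only nuclei and 11190 ± 1971 CPM in Enpp6-only nuclei, with no overlap between libraries. In OPCs it summed to 33530 ± 870 CPM. Between the 2 kinds of members the commitment list summed to 12430 ± 2291 and 22190 ± 2168 CPM. The myelin list summed to 4500 ± 1825 and 16580 ± 3127 CPM, and neither list overlapped. Gpr17 was also detected in 19.4% of OPCs, whose rule set no limit on it. Whether the Gpr17-only members include OPCs in which Pdgfra was missed was not tested.

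As higher in Enpp6-only nuclei the naming rule picked Igsf11, Pakap, Gas7, Nkain2, Mbp, Pbx3, Peli1 and Frmd4a. Igsf11, an adhesion molecule of the immunoglobulin superfamily, had 423 UMIs in Enpp6-only nuclei and none in Gpr17-only nuclei, at least 22.9-fold higher by the same floor, which places it in no order among the rest. Mbp averaged 5318 ± 1282 CPM against 210 ± 153 CPM. Frmd4a averaged 34490 ± 3050 CPM against 3143 ± 2637 CPM. Among those picked as lower were Dscam, Brinp3, Pcdh15, Ntm, Lrp1b, Xylt1 and Zbtb20. Dscam, an adhesion molecule, averaged 92.2 ± 122 CPM in Enpp6-only nuclei and 1782 ± 1063 CPM in Gpr17-only nuclei. Pcdh15 averaged 377 ± 244 against 4828 ± 1948 CPM, and Zbtb20, a transcriptional repressor, 725 ± 245 against 4974 ± 1533 CPM. Sox6 (2296 ± 646 and 2802 ± 621 CPM) and Fyn (2340 ± 544 and 1901 ± 568 CPM) were not called between the 2 kinds.

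Nuclei with both markers lay between the other kinds for several genes. Pcdh15 was detected in 16 of 16 Gpr17-only nuclei, 30 of 41 with both and 33 of 92 Enpp6-only nuclei. Ptprz1 went from 81.2% through 56.1% to 40.2%, and Casr from 0 of 16 nuclei through 9 of 41 to 34 of 92. The count of 0 among 16 nuclei allows a share of nuclei with a UMI of up to 18.75% (3 counts over 16). Mbp was found in 6 of 16, 40 of 41 and 92 of 92 nuclei. Bmp4 did not follow this order: it was found in 4 of 16, 26 of 41 and 44 of 92 nuclei. The exact intervals of neighbouring kinds overlap for Bmp4, Ptprz1 and Casr. Those of Pcdh15 overlap between Gpr17-only nuclei and nuclei with both, and those of Mbp between nuclei with both and Enpp6-only nuclei.

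**Figure D4:**
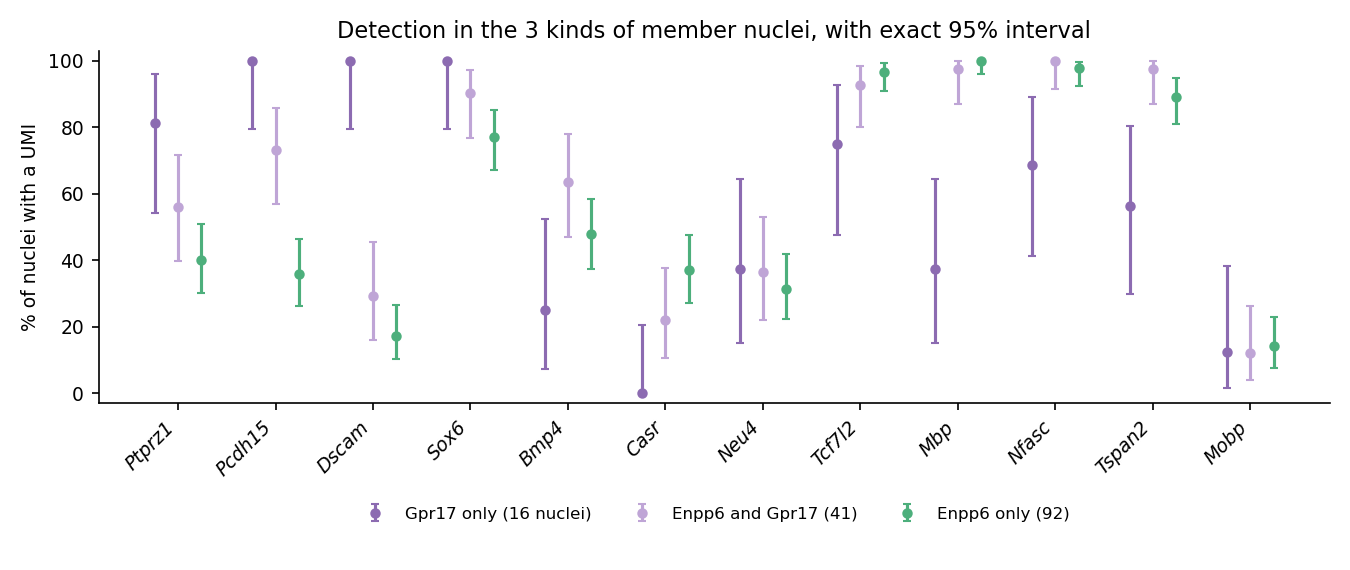
Percentage of nuclei with at least 1 UMI of 12 genes (y axis) among members with Gpr17 only (16 nuclei), with Enpp6 and Gpr17 (41 nuclei) and with Enpp6 only (92 nuclei), pooled over libraries, with exact 95% binomial intervals. Pcdh15 and Dscam are in 100% of Gpr17-only nuclei, and Mbp is in 37.5% of them against 100% of Enpp6-only nuclei.

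The study compared naloxone with saline after heroin. The share of committed precursors did not separate the groups. Among all kept nuclei they made up 0.304%, 0.241% and 0.258% in the saline libraries and 0.280%, 0.201% and 0.170% in the naloxone libraries. The means were 0.268 ± 0.0325% and 0.217 ± 0.0565% (SD, n = 3 each), a difference of -0.0508 percentage points (exact two-sided permutation p = 0.3, where 3 against 3 libraries allow no p below 0.1). Among oligodendrocyte-lineage nuclei (the 3 classes together) they made up 2.06%, 1.75% and 1.20% with saline and 1.31%, 1.28% and 1.02% with naloxone. That difference was -0.464 points (exact two-sided permutation p = 0.3), and saline 3 lay below naloxone 4 and naloxone 5. Benjamini-Hochberg adjustment over these 2 comparisons leaves both at 0.3. Over the fits that leave out 1 library, the first difference ran from -0.0822 (without naloxone 4) to -0.0275 (without naloxone 6) and the second from -0.700 (without saline 3) to -0.267 (without saline 1). The share of Enpp6-only nuclei among members was 75.0%, 74.3% and 41.7% with saline and 50%, 68.2% and 57.1% with naloxone.

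No gene differed between naloxone and saline in committed precursors at an adjusted p under 0.05. Of 2027 genes tested with edgeR, 0 (0%) passed and 125 (6.17%) had an unadjusted p under 0.05 (195 without naloxone 6). DESeq2 called 0 as well, with 49 genes at an unadjusted p under 0.05. In 228 genes (11.2%) the 3 naloxone libraries did not overlap with the 3 saline libraries. The median standard error of a log2 change was 0.352, on 14 to 35 nuclei in a library, so a small change was not detectable at this depth. Larger changes could be missed too. In counts simulated with equal spread for all genes, this edgeR fit called 28% of genes changed by a log2 of 1. At a log2 of 2 it called 81%.

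The smallest adjusted p, 0.510, was shared by 8 genes. The 7 with a symbol are named here after their values were seen, and in all 7 the groups did not overlap. Rnf43, an E3 ligase that removes Wnt receptors from the cell surface, had 262, 155 and 230 CPM with saline and 483, 546 and 435 CPM with naloxone, without overlap (log2 change 1.20 ± 0.28). Its 208 UMIs came from 66 nuclei, at most 14 from any of them. Rnf43 was also called higher in Gpr17-only (1244 ± 611 CPM) than in Enpp6-only nuclei (212 ± 208 CPM). Gpr17-only nuclei numbered 2, 2 and 4 with saline and 4, 2 and 2 with naloxone, and their part in the difference was not tested. The difference between its naloxone change in committed precursors and that in OPCs was 0.79 ± 0.29 (edgeR adjusted p = 0.786), and against mature oligodendrocytes 0.87 ± 0.27 (edgeR adjusted p = 0.543).

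Fgfr2, a fibroblast growth factor receptor, had 199, 184 and 151 CPM with saline and 62.1, 57.4 and 77.7 CPM with naloxone (log2 change -1.43 ± 0.37). Timp3, a metalloproteinase inhibitor, had 21.0, 14.7 and 62.0 CPM with saline and 152, 144 and 109 CPM with naloxone (2.07 ± 0.54), on 50 UMIs in all. Sema5b, a semaphorin, averaged 509 ± 80.6 CPM with saline and 983 ± 164 CPM with naloxone (n = 3 each). Ptpn4, a tyrosine phosphatase, averaged 138 ± 22.2 and 308 ± 57.2 CPM. Kcnip4 and Nrxn3, both abundant in neurons, were the remaining named genes. Kcnip4 had 220, 1252 and 310 CPM with saline and 104, 201 and 15.6 CPM with naloxone, and 1 nucleus of saline 2 held 42.6% of its UMIs. Nrxn3 had 524, 1422 and 505 CPM with saline and 387, 244 and 140 CPM with naloxone, and the same nucleus held 15.7% of its UMIs. Both passed the threshold when no filter on low counts was set (edgeR adjusted p = 1.36e-09 for Kcnip4 and 3.71e-05 for Nrxn3). The summed neuron markers had 1069, 2151 and 1205 CPM with saline and 1043, 1134 and 824 CPM with naloxone. These groups overlapped, with saline 2 the highest, and the part of the neuron markers in the values of Kcnip4 and Nrxn3 was not tested.

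By list, no member passed in either direction. The tested genes of the commitment list (20 of 28) had a median log2 change of 0.06, of the OPC list (16) 0.36, of the myelin list (15) -0.29 and of the heat shock list (8) -0.43, against 0.00 over all 2027 genes. Sox6 had 2138, 1952 and 2118 CPM with saline and 3155, 3202 and 2596 CPM with naloxone (log2 change 0.54 ± 0.19, edgeR adjusted p = 0.651). Grik2 had 9127, 7117 and 6495 CPM with saline and 5868, 5371 and 6141 CPM with naloxone (-0.38 ± 0.17, edgeR adjusted p = 0.764). Neither overlapped between groups, as was so for 11.2% of all genes tested. Mbp (log2 change -0.39 ± 0.20, edgeR adjusted p = 0.825), Bmp4 (0.35 ± 0.35, edgeR adjusted p = 0.911) and the chaperone gene Hsp90ab1 (-1.13 ± 0.45, edgeR adjusted p = 0.764) overlapped. No cell-cycle or opioid-system gene passed the filter on low counts.

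**Figure D5:**
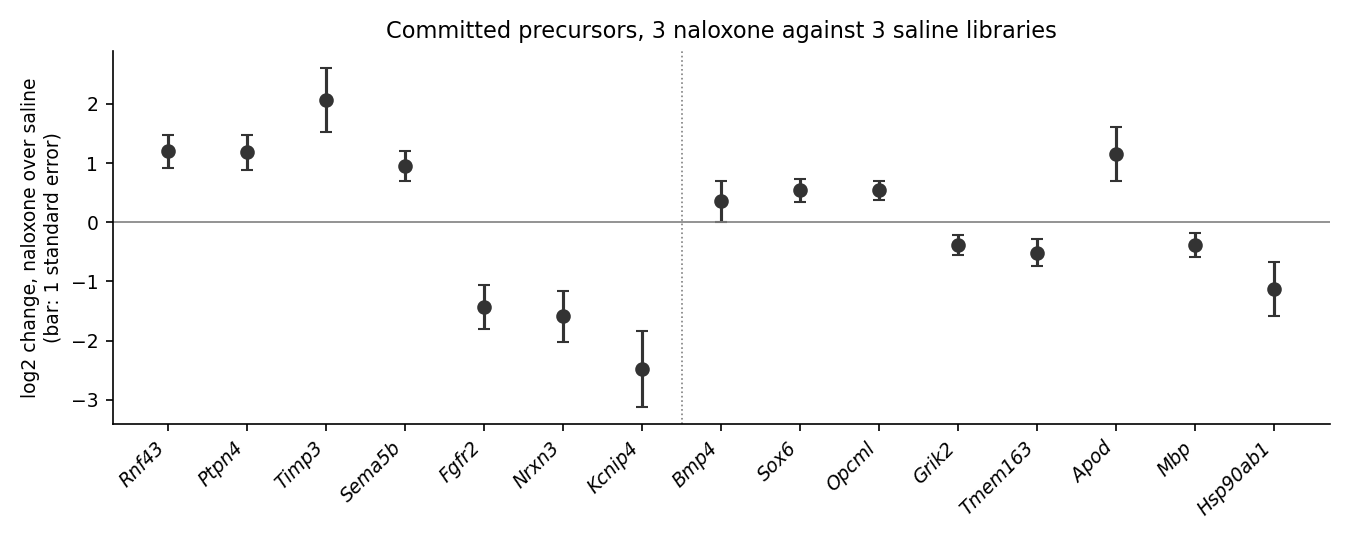
Log2 change, naloxone over saline, of 15 genes in committed precursors with its standard error (3 libraries a group); to the left of the dotted line 7 genes with the smallest adjusted p, to the right other genes given in the text. None of the 15 has an adjusted p under 0.05.

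The naloxone change in committed precursors was not shown to differ from that in the neighbouring classes. The class by treatment term called 0 of 9090 genes (0%) against OPCs and 0 (0%) against mature oligodendrocytes with edgeR, with 551 (6.06%) and 579 (6.37%) at an unadjusted p under 0.05. DESeq2 called 0 in both, with 439 and 455 genes at an unadjusted p under 0.05. In counts simulated as above, the edgeR terms called 3% and 5.5% of genes whose naloxone change differed by a log2 of 1. At a log2 of 2 they called 37.5% and 39%, so such differences could be missed. The smallest adjusted p against mature oligodendrocytes was that of Trpm3, a cation channel, at 0.0657. Its level in committed precursors averaged 249 ± 308 CPM with saline and 21.1 ± 18.5 CPM with naloxone (n = 3 each), and 1 nucleus of saline 2 held 54.8% of its 104 UMIs. Trpm3 passed the threshold when saline 1 or saline 3 was left out (edgeR adjusted p = 0.00596 and 0.00662) and when no filter on low counts was set (edgeR adjusted p = 3.33e-10).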

How the data were processed

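The authors deposited raw UMI counts for each gene in each barcode. They used, per the submitters' processing notes, Cell Ranger 9.0.1, Seurat 5.2.1, R 4.4.0 and the build mRatBN7.2, and per the labels the libraries were 10x GEM-X 3' v4. Whether introns were counted is not given in the sources used here. Against 44592 nuclei named in the labels there were 64260 barcodes to work from, and the authors' own selection was not used here.

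Nuclei were kept at 500 or more genes and at most 5% mitochondrial UMIs. Classes were cut by the UMI limits given in the text. Microglia, the background class, held at least 2 UMIs of Csf1r and none of Pdgfra, Mog, Opalin, Enpp6 or Gpr17. The limits on Gad1, Gad2 and Aqp4 held for every class, and that on Csf1r for all but microglia. Doublets were called from simulated pairs at a rate of 0.4% per 1000 nuclei and removed only as an alternative. Counts were summed per class and library and tested with edgeR 4.0.16 (filterByExpr, TMM, quasi-likelihood F-test, Benjamini-Hochberg, threshold 0.05), with library as a block between classes, or DESeq2 1.42.0 as an alternative, and scripts were tested on simulated data. Log2 changes and CPM were computed from these sums, with SDs over libraries. Standard errors of edgeR log2 changes are the absolute change divided by the square root of the F statistic. They are approximate, and least reliable for the smallest changes. The members, the 20 gene lists and the tests were chosen with earlier results of these data known. Named genes are, per contrast, the 10 (8 between kinds of members) largest called differences each way with at least 50 CPM in the higher class and no overlap between libraries; list genes may be named too. A few genes that these rules reach are not reported here. Sequences are not used here.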

Additional observations from a re-analysis of the deposited data

How the results depend on the processing

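Each count was refitted with DESeq2, with RLE factors, without the filter on low counts, leaving out libraries in turn, with called doublets removed, at least 1000 genes per nucleus, at least 6 marker UMIs and, for class comparisons, no library block and nuclei thinned to 1000 UMIs. Without the filter, naloxone against saline called 13 of 13296 genes tested (4 higher, 9 lower). At an unadjusted p under 0.05 there were 565 of these 13296, against 125 of 2030 with the filter. Totals of tested genes in this section include genes of the rule. The class by treatment terms called 15 of 19421 genes against OPCs and 16 of 19421 against mature oligodendrocytes, from 9100 with the filter. Of the 13 genes called for naloxone, 4 (Cntnap5b, Galntl6, Il1rapl2 and Zfp804b) had over 80% of their UMIs in 1 nucleus of naloxone 4, the deepest member at 14817 UMIs. Leaving out a library gave 0 to 1 calls against OPCs (1 without saline 3: Creb5) and 0 to 4 against mature oligodendrocytes (1 without saline 1, 2 without saline 2, 4 without saline 3). Thinning left 1406 and 1408 calls, from 4386 genes tested. Without the filter the contrast of Enpp6-only with Gpr17-only nuclei called 364 of 12583 genes tested, 86.3% of them higher. With the filter it called 156 of 341, 61.5% of them higher. Leaving out a library there gave 127 to 161 calls, of which 48.9% to 61.8% were higher. The other counts of calls stayed within 1.5 times, and both shares kept their direction under every alternative run, in a design that cannot reach the threshold. The cause of these changes was not tested beyond the values given. No paired analysis was possible because the saline and naloxone libraries share no replicate number.

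The number of nuclei sets the limits. A library rests on 14 to 35 committed precursors and on 2 to 4 Gpr17-only nuclei, so genes at a few UMIs are not ranked by their fitted values.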
